A study of Mus musculus with 12 samples.

Results

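The 35 genes described here are interferon-stimulated genes, known antiviral and interferon-inducible genes of the mouse. They were chosen by name, with earlier results of these data known but with no rule on their values. They were followed on 12 arrays of peritoneal macrophages, 1 array for each combination of 3 genotypes and 4 times, in a design that asks how the kinases IRAK1 and IRAK2 shape the macrophage response to a TLR2 ligand. The genotypes were wild type, IRAK-2-/- (called IRAK2 knockout) and mice lacking both IRAK-1 and IRAK-2 (called double knockout). The cells came from mice injected with thioglycollate, an irritant that recruits macrophages to the peritoneum, and were either left unstimulated (0 h) or given MALP-2, a bacterial lipopeptide that activates TLR2 with TLR6, at 100 ng/ml for 2, 4 or 8 h. Strain, sex, age and the number of mice behind each array are not given in the labels. Each group is 1 array, so no value below has a spread between mice.

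Of the 35 genes, 32 were read from the deposited table of log2 values, out of 18194 genes read in all. Oas1g and Ifi44 had no named probeset and the Isg15 probeset is paired with more than 1 gene, so these 3 were not analysed here. A gene was tested where its mean over the 11 arrays other than double-knockout 0 h reached a floor of 3.83, the median of all values on those arrays. Mx2 and Iigp1 lay under that floor on average, which left 30 genes tested among 10858. Tests were limma fits with Benjamini-Hochberg adjustment over all 10858 genes, and a gene was called at an adjusted p under 0.05. Because groups have 1 array each, a p-value weighs a time difference against its constancy over genotypes, or a genotype difference against its constancy over times, and does not measure the spread between mice. A difference of 1 on the log2 scale is a 2-fold change.

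Interferons are secreted proteins that bind receptors on most cells and switch on a shared set of antiviral genes. Type I interferons act through the receptor chains IFNAR1 and IFNAR2 and the kinases JAK1 and TYK2, and the complex that holds IRF9 then binds the interferon-stimulated response element (ISRE). A different DNA element, the gamma-activated site (GAS), is known for responses to interferon gamma. Macrophages express many of these genes at rest and raise them when TLR3, TLR4 or nucleic acid sensors lead to interferon beta. Signals from TLR2 at the cell surface run through MyD88 and the IRAK kinases and are better known for NF-kB targets.

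Stretches of promoter that carry an ISRE match before the start site are shown for 9 of the genes, because they are the sequence feature that joins genes with different time courses below. They are taken from the RefSeq windows of build GRCm38.p6, read 5′ to 3′ on the strand of the gene, with the matching bases in capitals (TTTC, any 2 bases, TTTC is the same match on the other strand).
Ifit1 (chr19:34640771-34640827, plus strand): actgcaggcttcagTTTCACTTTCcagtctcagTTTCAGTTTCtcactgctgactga
Ifit3 (chr19:34583359-34583430, plus strand): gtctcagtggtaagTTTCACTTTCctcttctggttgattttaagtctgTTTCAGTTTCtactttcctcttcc
Rsad2 (chr12:26456549-26456586, minus strand): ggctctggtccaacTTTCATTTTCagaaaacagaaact
Oas1a (chr5:120907526-120907559, minus strand): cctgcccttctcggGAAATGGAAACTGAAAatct
Oas3 (chr5:120777711-120777748, minus strand): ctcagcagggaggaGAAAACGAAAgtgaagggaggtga
Igtp (chr11:58199508-58199545, plus strand): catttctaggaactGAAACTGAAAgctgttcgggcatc
Irgm1 (chr11:48871421-48871464, minus strand): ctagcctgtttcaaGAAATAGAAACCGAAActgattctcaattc
Trim30a (chr7:104465206-104465243, minus strand): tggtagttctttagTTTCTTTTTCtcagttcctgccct
Bst2 (chr8:71537573-71537616, minus strand): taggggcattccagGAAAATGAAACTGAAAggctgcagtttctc

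The ISRE letters searched were GAAA, any 2 bases, GAAA on both strands, in windows from 250 bases before to 50 bases after the start. Of the 35 genes, 25 had such a window, and 15 of these 25 (60%) held a match, against 3.99% of the 27025 genes with a window. In the window of Ifit1 the matches begin at positions -104 and -85 from the start, in that of Rsad2 at -120, and in that of Irgm1 at -30 and -24, where they overlap. The windows of Ifih1, Ifitm3 and Eif2ak2 held matches after the start only. GAS letters (TTC, any 3 bases, GAA) were found in 9 of the 25 windows against 9.55% of all genes, and NF-kB letters (GGG, any 3 bases, TTCC) in 6 of the 25 against 6.31%. In Bst2, Ifit2 and Ifitm3 matches of different motifs overlap. These are letter matches in 1 window per start site, and no binding was measured.

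The arrays carried macrophage RNA: all 8 macrophage markers were read with a mean over the floor, among them Csf1r (12.82 to 13.31 on the 11 arrays) and Lyz2 (12.80 to 13.20). The double-knockout 0 h array stood apart, with correlations of 0.764 to 0.804 to the other arrays, whose lowest correlation among themselves was 0.954. It is left out of the fits and given by value. The 3 stimulated double-knockout arrays had a weaker 5′ signal, with actin 5′ minus 3′ probesets at -4.68 to -3.87 against -3.72 to -3.18 on the 8 arrays of the other genotypes, and Gapdh at -5.90 to -4.36 against -3.84 to -3.42. Irak2 was 5.77 to 6.69 in wild type, 4.65 to 5.63 in the IRAK2 knockout and 4.61 to 5.19 on the stimulated double-knockout arrays. Irak1 was 8.11 to 8.59 on the 11 arrays. Whether the probesets lie in the deleted parts was not analysed here, so they do not check the labels. In such bulk RNA, fewer cells of a type and less RNA per cell cannot be told apart.

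Over the wild-type and IRAK2-knockout arrays most interferon-stimulated genes were higher late after MALP-2 and few were higher early. At 2 h against 0 h, 4 of the 30 tested genes were higher and 11 lower, where 16.2% of all tested genes were called higher and 29.0% lower. At 4 h 12 were higher and 1 lower (background 17.2% and 23.1%), and at 8 h 20 were higher and 1 lower (background 14.7% and 18.0%). The median difference of the 30 genes was -0.22, 0.28 and 0.75 at 2, 4 and 8 h, beside -0.12, -0.04 and -0.03 over all genes tested. The share called at 2 h in each direction lay near the background, and the share called higher at 8 h, 66.7%, was well above it.

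Markers of macrophages and other cells moved with time as well. Of the 8 macrophage markers 2 were higher and 2 lower at 2 h and at 4 h, and 2 higher and 3 lower at 8 h, with Cd14 3.77, 3.59 and 3.0 above 0 h and Mertk at -1.78, -2.63 and -1.53. The neutrophil genes S100a8 (0.43 and 0.58) and Camp (0.99 and 1.19) were called higher at 4 and 8 h. Siglecf was lower at 2, 4 and 8 h (-0.40, -0.60 and -1.46) and Cpa3 at 4 and 8 h (-0.53 and -0.69). Of 3 dendritic cell genes tested, Ccr9 was higher at all 3 times (0.59, 1.12 and 0.78), and at 2 h Zbtb46 was higher and Klk1 lower. In the B cell list Blk was higher and Ighm lower at 2 h. Their part in the time courses was not tested.

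**Figure D1:**
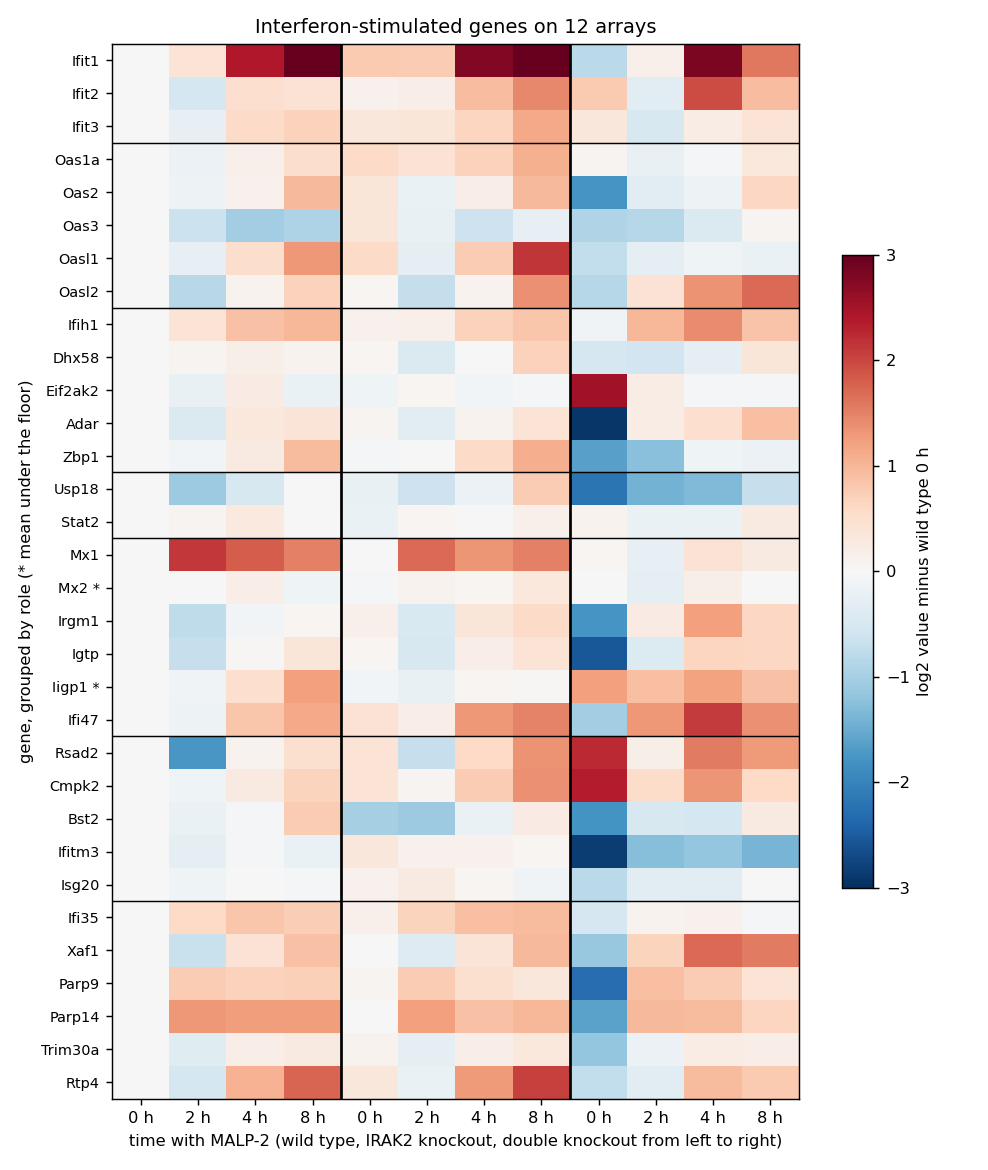
Log2 value minus the wild-type 0 h array for the 32 genes read (rows, grouped by role, asterisks for a mean under the floor) on the 12 arrays (columns, time with MALP-2 within wild type, IRAK2 knockout and double knockout); red is higher and blue lower, with colours ending at 3 either way. Ifit1 reaches 3.0 above 0 h in wild type at 8 h, Mx1 is red from 2 h in wild type and the IRAK2 knockout but not in the double knockout, and the double-knockout 0 h column differs from all others.

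Sorted by the wild-type arrays alone, 16 genes spanned less than 1 log2 over the 4 times, 12 were highest at 8 h, 2 at 2 h (Mx1 and Parp14), 1 at 4 h (Ifit2) and 1 at 0 h (Oas3). A fall at 2 h can supply the span of 1 log2. Usp18 read 5.46, 4.38 and 5.47 at 0, 2 and 8 h in wild type. In the IRAK2 knockout 10 of the 12 genes highest at 8 h were again highest then, with a range of at least 1 log2. They were Ifit1, Oas2, Oasl1, Oasl2, Zbp1, Usp18, Ifi47, Rsad2, Xaf1 and Rtp4. Igtp and Iigp1 did not reach that range there. Dhx58, Irgm1, Cmpk2 and Bst2, under that range in wild type, passed it in the IRAK2 knockout with their highest value at 8 h. Mx1 and Parp14 were highest at 2 h in both genotypes. On single wild-type arrays, 2 of 30 measured genes stood 2-fold or more above the 0 h array at 2 h (5.41% of all genes measured), 4 of 30 at 4 h (5.34%) and 7 of 31 at 8 h (5.06%), and 2, 1 and 0 were 2-fold lower (7.67%, 6.93% and 5.65%). In the IRAK2 knockout 2, 2 and 9 of 30 were 2-fold higher (4.65%, 4.26% and 3.21%), and 0 were 2-fold lower at 8 h (2.95%). The share 2-fold higher at 8 h thus lay above the background for both of these genotypes. Each comparison set a single array against another, with no test. The double knockout, whose 0 h array stood apart, is not covered here.

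The early genes were Mx1, Parp14, Parp9 and Ifi35. Mx1, a dynamin-like GTPase that blocks influenza virus replication, read 5.44, 7.57, 7.25 and 6.96 at 0, 2, 4 and 8 h in wild type and 5.43, 7.15, 6.77 and 6.96 in the IRAK2 knockout. All 6 stimulated arrays of these genotypes lay above both 0 h arrays, and the 2 h value was the highest in each. The difference at 2 h was 1.93 (SE 0.15, limma adjusted p = 4.66e-05) and at 8 h still 1.52 (SE 0.15, adjusted p = 2.27e-04). In the double knockout Mx1 read 5.20, 5.88 and 5.70 at 2, 4 and 8 h, close to the 0 h arrays of the other genotypes.

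Parp14, an ADP-ribosyltransferase, read 7.66, 8.97, 8.92 and 8.91 in wild type, and the IRAK2-knockout arrays gave 7.68, 8.89, 8.53 and 8.66. It rose by 1.26 at 2 h (SE 0.13, limma adjusted p = 1.58e-04). On its other probeset the difference at 8 h was 0.30 and not called (adjusted p = 0.11), against 1.12 on the probeset used. Parp9, whose gene lies next but 1 to Parp14 with Dtx3l between them, read 6.22, 6.97, 6.91 and 6.93 in wild type and rose by 0.72 at 2 h (SE 0.13, adjusted p = 0.0031). Ifi35, a leucine-zipper protein, read 9.65, 10.24, 10.49 and 10.38 in wild type and 9.80, 10.31, 10.55 and 10.59 in the IRAK2 knockout. Its rise was 0.55 at 2 h (SE 0.10, adjusted p = 0.0035) and 0.76 at 8 h, and both other probesets of Ifi35 rose at 8 h too, by 0.64 and 0.51.

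All 3 IFIT genes, whose proteins bind foreign RNA and hold back its translation, were not called at 2 h and were higher at 4 and 8 h. Ifit1 read 4.92, 5.32, 7.33 and 7.93 in wild type and 5.71, 5.67, 7.69 and 8.54 in the IRAK2 knockout. It had the largest 8 h difference of the 30 genes, 2.92 (SE 0.13, limma adjusted p = 5.56e-06), and most of it was present at 4 h (2.19, SE 0.13). In the double knockout Ifit1 read 5.07, 7.74 and 6.51 at 2, 4 and 8 h, so that its highest value was at 4 h and the 8 h value lay below that of both other genotypes. Ifit2 read 4.44, 3.92, 4.95 and 4.87 in wild type and 4.57, 4.64, 5.37 and 5.89 in the IRAK2 knockout, a difference of 0.87 at 8 h (SE 0.19, adjusted p = 0.011). Ifit3, which lies beside Ifit2 on the chromosome, differed by 0.74 at 8 h (SE 0.14, adjusted p = 0.0052).

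The oligoadenylate synthetases make the second messenger that activates RNase L, and the OAS-like genes Oasl1 and Oasl2 are grouped with them here. Of the 5 tested, 4 were higher at 8 h and Oas3 was lower. Oasl1 read 4.32, 4.07, 4.84 and 5.63 in wild type and 4.89, 4.03, 5.09 and 6.47 in the IRAK2 knockout, a difference of -0.55 at 2 h (SE 0.19, limma adjusted p = 0.047) and of 1.44 at 8 h (SE 0.19, adjusted p = 9.99e-04). Its neighbour Oasl2 read 5.0, 4.17, 5.11 and 5.69 in wild type and 5.06, 4.28, 5.11 and 6.37 in the IRAK2 knockout. Both genotypes had their lowest Oasl2 value at 2 h, a difference of -0.81 on average (SE 0.17, adjusted p = 0.0056), and their highest at 8 h, 1.0 above 0 h (SE 0.17, adjusted p = 0.0030).

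Oas2 and Oas3 are direct neighbours in the genome and went opposite ways. Oas2 read 5.32, 5.16, 5.46 and 6.30 in wild type and rose by 0.80 at 8 h (SE 0.13, limma adjusted p = 0.0022). Oas3 read 4.69, 4.04, 3.65 and 3.77 in wild type and 5.06, 4.47, 4.07 and 4.45 in the IRAK2 knockout, so both 0 h arrays were above their own stimulated arrays. Its difference was -1.02 at 4 h (SE 0.12, adjusted p = 3.20e-04) and -0.77 at 8 h (SE 0.12, adjusted p = 0.0018), with 3 of 11 arrays under the floor. Oas1a, with values from 6.58 to 7.81 in these genotypes, rose by 0.50 at 8 h (SE 0.10, adjusted p = 0.0067).

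Among the interferon-inducible GTPases of the IRG family, which act on the vacuoles of intracellular pathogens, Irgm1 and Igtp fell at 2 h and Ifi47 did not. Irgm1 read 5.83, 5.07, 5.75 and 5.88 in wild type and 5.99, 5.38, 6.20 and 6.41 in the IRAK2 knockout, a difference of -0.68 at 2 h (SE 0.12, limma adjusted p = 0.0027). Igtp read 7.37, 6.67, 7.40 and 7.73 in wild type, fell by 0.63 at 2 h (SE 0.11, adjusted p = 0.0019) and was 0.35 above 0 h at 8 h (SE 0.11, adjusted p = 0.037). Ifi47 read 6.55, 6.40, 7.38 and 7.68 in wild type and 6.98, 6.76, 7.84 and 8.03 in the IRAK2 knockout. It rose at both later times, by 0.85 at 4 h (SE 0.10, adjusted p = 4.21e-04) and 1.10 at 8 h (SE 0.10, adjusted p = 1.70e-04). Mx2 was under the floor on all 11 arrays. Iigp1 was under it on 7 of the 11, and its values over the floor were 4.53 in wild type at 8 h and 4.21, 4.51 and 4.18 on the stimulated double-knockout arrays.

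Rsad2, or viperin, makes a chain-terminating nucleotide that stops viral polymerases. It read 8.01, 6.26, 8.11 and 8.48 in wild type and 8.42, 7.32, 8.60 and 9.35 in the IRAK2 knockout. In each genotype the 2 h array was the lowest by at least 1 log2, and the average difference from 0 h was -1.42 (SE 0.17, limma adjusted p = 3.30e-04), the largest fall among the 30 genes. By 8 h Rsad2 was 0.70 above 0 h (SE 0.17, adjusted p = 0.014). Cmpk2, the adjacent gene, encodes a mitochondrial kinase that supplies nucleotides of that kind, and it read 4.18, 4.04, 4.46 and 4.85 in wild type. It rose by 0.80 at 8 h (SE 0.13, adjusted p = 0.0025), but a second, dimmer probeset of Cmpk2 gave -0.06 (adjusted p = 0.74).

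Bst2, or tetherin, which holds budding virus at the cell surface, read 5.57, 5.36, 5.53 and 6.34 in wild type and 4.58, 4.49, 5.36 and 5.81 in the IRAK2 knockout, and rose by 1.0 at 8 h (SE 0.19, limma adjusted p = 0.0050). Ifitm3, which blocks viral entry from endosomes, stayed within 10.36 to 10.66 in wild type, and the exonuclease gene Isg20 within 4.02 to 4.16. Neither was called at any time against 0 h.

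Of the 5 sensor and editing genes, Ifih1 and Zbp1 were higher at 8 h. Ifih1, the RNA sensor MDA5, read 8.23, 8.65, 9.10 and 9.22 in wild type and 8.37, 8.38, 8.92 and 9.06 in the IRAK2 knockout, a rise of 0.84 at 8 h (SE 0.13, limma adjusted p = 0.0017). Zbp1, a sensor of Z-form nucleic acid, read 5.34, 5.25, 5.61 and 6.30 in wild type and rose by 1.04 (SE 0.12, limma adjusted p = 4.30e-04). Its other probeset, under the floor on average (3.73), gave 0.11 at 8 h. Adar, which edits adenosine in double-stranded RNA, gave -0.43 at 2 h on the probeset used (SE 0.12, adjusted p = 0.019) and 0.50 on the next brightest one (adjusted p = 0.018), so no direction is given for it. The double-stranded RNA kinase gene Eif2ak2 (5.87 to 6.34 in wild type) and Dhx58, a regulator of RNA sensing that was under the floor on 3 of 11 arrays, were not called. A different probeset of Eif2ak2 was called higher at 4 h (0.35, adjusted p = 0.039) and 8 h (0.44, adjusted p = 0.019).

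Usp18, the protease that removes ISG15 and restrains the interferon receptor, read 5.46, 4.38, 4.99 and 5.47 in wild type and 5.24, 4.83, 5.28 and 6.21 in the IRAK2 knockout. Its 2 h arrays were the lowest of each genotype (-0.75, SE 0.20, limma adjusted p = 0.017), and its 8 h difference of 0.49 was not called (adjusted p = 0.10). Stat2 (4.39 to 4.69 in wild type) was not called at any time.

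Rtp4, a chaperone of G-protein coupled receptors that also dampens interferon responses, read 6.07, 5.55, 7.11 and 7.82 in wild type and 6.42, 5.88, 7.34 and 8.12 in the IRAK2 knockout. It fell by 0.53 at 2 h (SE 0.10, limma adjusted p = 0.0037) and was 1.73 above 0 h at 8 h (SE 0.10, adjusted p = 1.85e-05), the second largest rise. Xaf1, a promoter of cell death, read 6.62, 5.96, 7.05 and 7.49 in wild type and rose by 0.92 at 8 h (SE 0.12, adjusted p = 7.94e-04). Its other probeset rose by 1.13 at 8 h but gave 0.10 at 2 h, where the probeset used gave -0.53. Trim30a, a regulator of TLR signalling, fell by 0.37 at 2 h (SE 0.10, adjusted p = 0.018) and was not called afterwards. Its second probeset was not called at 2 h (-0.27, adjusted p = 0.094) and was higher at 8 h (0.40, adjusted p = 0.032).

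When each array was centred on its median instead, which moved the 2 h difference of Adar from -0.43 to -0.29, the falls of Adar, Oasl1 and Trim30a at 2 h were no longer called. The other 8 falls and all 4 rises at 2 h were called under that scaling as well. Among tested genes with a promoter window, 7 of 13 with an ISRE match and 7 of 9 without one were called higher at 8 h. Over all genes tested the share was 14.7%. Oas3, Irgm1, Trim30a, Stat2, Ifitm3 and Eif2ak2 hold the match and were not among the risers, while Oasl1, Oasl2, Ifi47, Ifi35, Ifit2, Cmpk2 and Xaf1 rose without it in the window searched. A different probeset of Trim30a and of Eif2ak2 was called higher at 8 h, and the other probeset of Cmpk2 was not. The split thus depends on the probeset read.

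**Figure D2:**
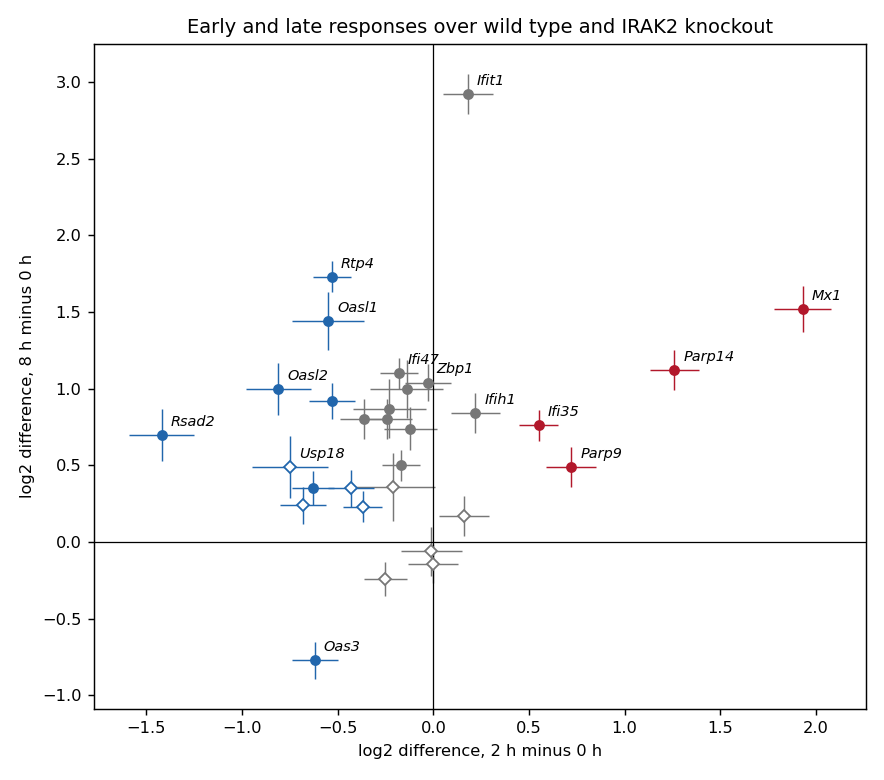
Difference from 0 h at 2 h (horizontal) and at 8 h (vertical), in log2 units over wild type and IRAK2 knockout, for the 30 tested genes with bars of 1 SE; red points were called higher at 2 h, blue lower and grey neither, and open diamonds were not called at 8 h. Mx1, Parp14, Parp9 and Ifi35 lie to the right, Ifit1 at the top near 0 on the horizontal axis, and Rsad2, Oasl2, Oasl1 and Rtp4 at the upper left. Both axes use the same 0 h arrays.

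From 2 h onward, the genes could be compared over all 3 genotypes. At 4 h against 2 h, 13 of the 30 were higher and 0 lower (background 5.21% and 2.99%). At an unadjusted p under 0.05 these counts were 18 and 0, beside 1718 and 947 of all 10858 genes tested. At 8 h against 2 h, 19 were higher and 0 lower (background 16.0% and 7.04%). Unadjusted, the counts were 20 and 1, beside 2686 and 1260 of all genes tested. The median differences were 0.47 and 0.74 for these genes and 0.05 and 0.09 for all genes tested. With 6 arrays in place of 9 the 4 h counts were 0 without the wild-type arrays and 0 without the IRAK2-knockout arrays. In those fits 13 and 0 genes were called in all. Without the double knockout the 4 h count was 17, where 2037 genes were called in all. The 8 h count was 13, 9 and 20 in the same order, where 714, 418 and 3439 genes were called in all.

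The rises from 2 to 8 h were largest for Ifit1 (2.31, SE 0.34, limma adjusted p = 0.0026), Rtp4 (1.87, SE 0.22, adjusted p = 0.0011), Rsad2 (1.78, SE 0.21, adjusted p = 0.0012) and Oasl2 (1.63, SE 0.18, adjusted p = 8.23e-04). Oas2 rose by 1.08 with the smallest adjusted p of the 30 genes, 6.63e-04 (SE 0.11). The early genes Mx1, Parp14, Parp9 and Ifi35 had differences of -0.10, -0.21, -0.32 and 0.09, none called. In the double knockout Oasl2 read 5.43, 6.35 and 6.70 at 2, 4 and 8 h and Rsad2 8.18, 9.57 and 9.29. Oasl1 stayed near its 2 h level there, with 4.06, 4.18 and 4.11, beside 4.07, 4.84 and 5.63 in wild type and 4.03, 5.09 and 6.47 in the IRAK2 knockout.

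**Figure D3:**
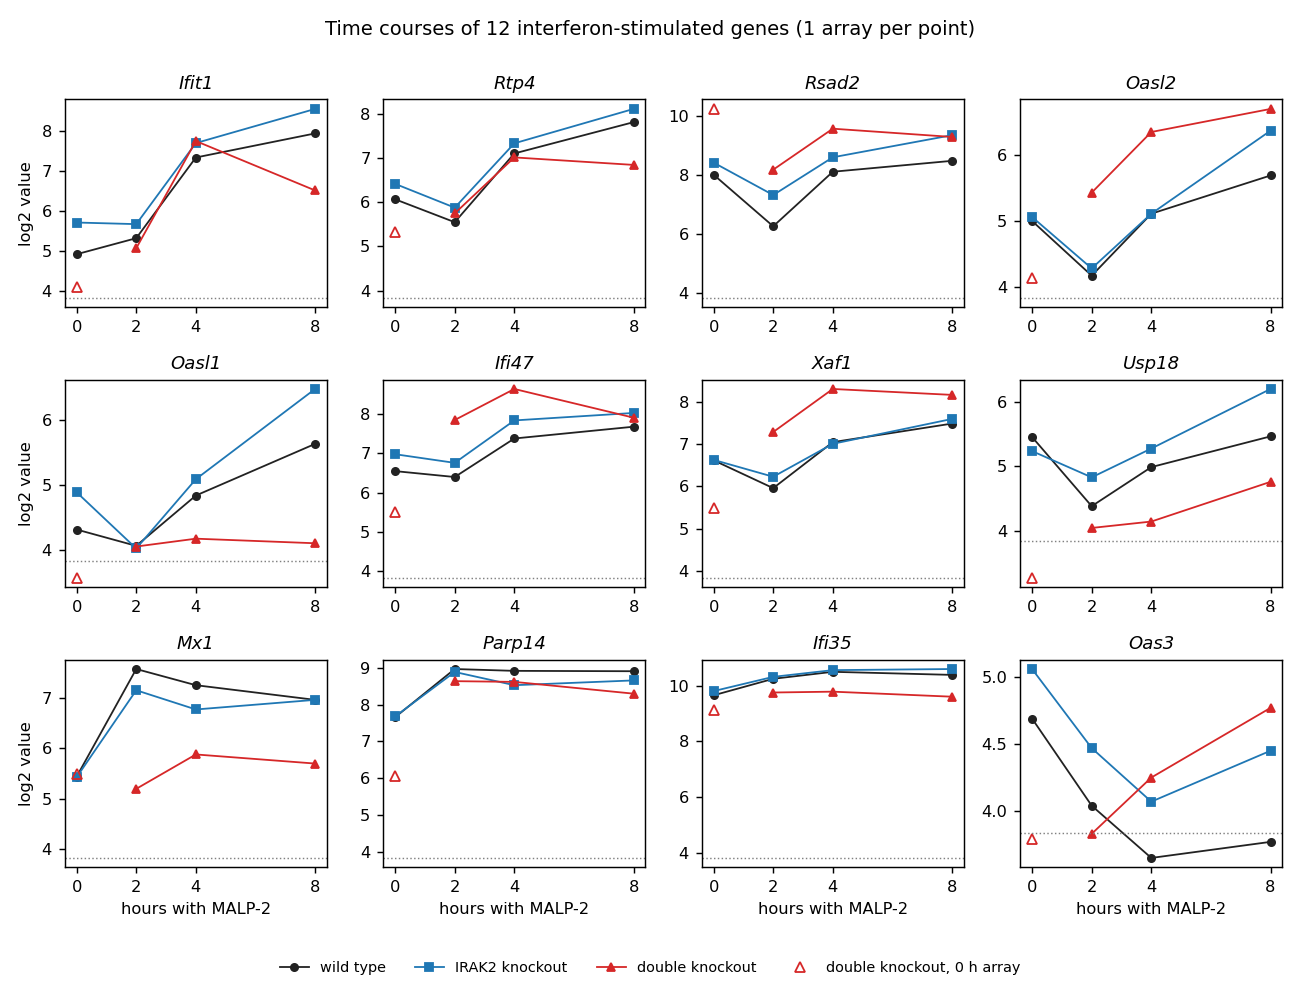
Log2 value (vertical, scaled per gene) against hours with MALP-2 for 12 genes, 1 array per point; black circles are wild type, blue squares IRAK2 knockout, red triangles double knockout, the open triangle the double-knockout 0 h array and the dotted line the floor of 3.83. Black and blue lines run close together for most genes, the red line lies above them for Oasl2 and Ifi47 at 2 and 4 h, and below them for Mx1, Ifi35 and Usp18.

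Loss of IRAK2 alone left no interferon-stimulated gene called as different from wild type over 2, 4 and 8 h: 0 of 30, where 0.414% of all genes were called higher and 0.350% lower. At an unadjusted p under 0.05, 8 were higher and 1 lower, beside 793 and 689 of all 10858 genes tested. Estimates were above wild type for 22 of the 30, with a median of 0.16 beside 0.02 over all genes. Oas1a came nearest, with 7.18, 7.45 and 7.81 in the IRAK2 knockout against 6.58, 6.91 and 7.28 in wild type, higher at each time by 0.60, 0.53 and 0.53. Its difference was 0.55 (95% interval 0.32 to 0.79, limma adjusted p = 0.059), and the 0 h arrays differed in the same direction, 7.33 against 6.75.

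Rsad2 was also higher on each IRAK2-knockout array, by 0.81 over the stimulated times (95% interval 0.32 to 1.30, limma adjusted p = 0.15). Ifit2 differed by 0.72 (adjusted p = 0.31), Oas3 by 0.51 (adjusted p = 0.34), Usp18 by 0.49 (adjusted p = 0.20), Irgm1 by 0.43 (adjusted p = 0.31) and Ifit3 by 0.38 (adjusted p = 0.26). Bst2 was the 1 gene lower at an unadjusted p under 0.05, by -0.53 (95% interval -0.91 to -0.14, adjusted p = 0.23), and was 4.58 against 5.57 at 0 h already. When the spread was estimated from these genotypes alone, 7 genes were called higher, among them Rsad2 (adjusted p = 0.013) and Oas1a (adjusted p = 0.018), and 565 genes in all. With all 11 arrays in the limma fit 1 was called, Oas1a (adjusted p = 0.012), and 143 genes in all. On single arrays, Rsad2 at 2 h and Ifit2 at 8 h were at least 2-fold higher (backgrounds 0.251% and 0.686%) and Iigp1 at 8 h 2-fold lower (1.21%), of 30 and 31 genes measured. At 0 h and 4 h no gene of the 30 was 2-fold apart (backgrounds 0.141% and 0.220% higher, 0.317% and 0.528% lower), and none was lower at 2 h (0.286%).

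Markers of other cells moved with this comparison. Ccr9, of the dendritic cell list, was lower in the IRAK2 knockout (-1.35, limma adjusted p = 0.0099), and so was the immunoglobulin gene Ighm (-1.35, adjusted p = 0.036). Summed over the 7 genes read of the dendritic cell list, log2 levels were 7.57 to 7.80 on the stimulated wild-type arrays and 7.36 to 7.38 on those of the IRAK2 knockout. Flt3, Xcr1 and Cd209a of that list were under the floor on all 11 arrays, and the 6 B cell genes read summed to 7.35 to 8.16 against 6.77 to 7.11. Their part in the values above was not tested.

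In the double knockout, interferon-stimulated genes were called in both directions. Against wild type 7 of the 30 were higher and 6 lower in the double knockout, shares of 23.3% and 20.0% beside 23.8% and 17.4% of all genes tested, so the counts lie near the background. The median was -0.16, beside 0.07 over all genes. The same wild-type arrays serve as control for both knockouts. On single arrays 6, 7 and 2 of 31 genes were at least 2-fold higher than wild type at 2, 4 and 8 h (backgrounds 4.80%, 6.67% and 5.81%) and 2, 2 and 5 lower (4.50%, 6.14% and 4.89%). Oasl2 was among the higher genes at each time, and the 5 lower at 8 h were Ifit1, Ifitm3, Mx1, Oasl1 and Zbp1.

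**Figure D4:**
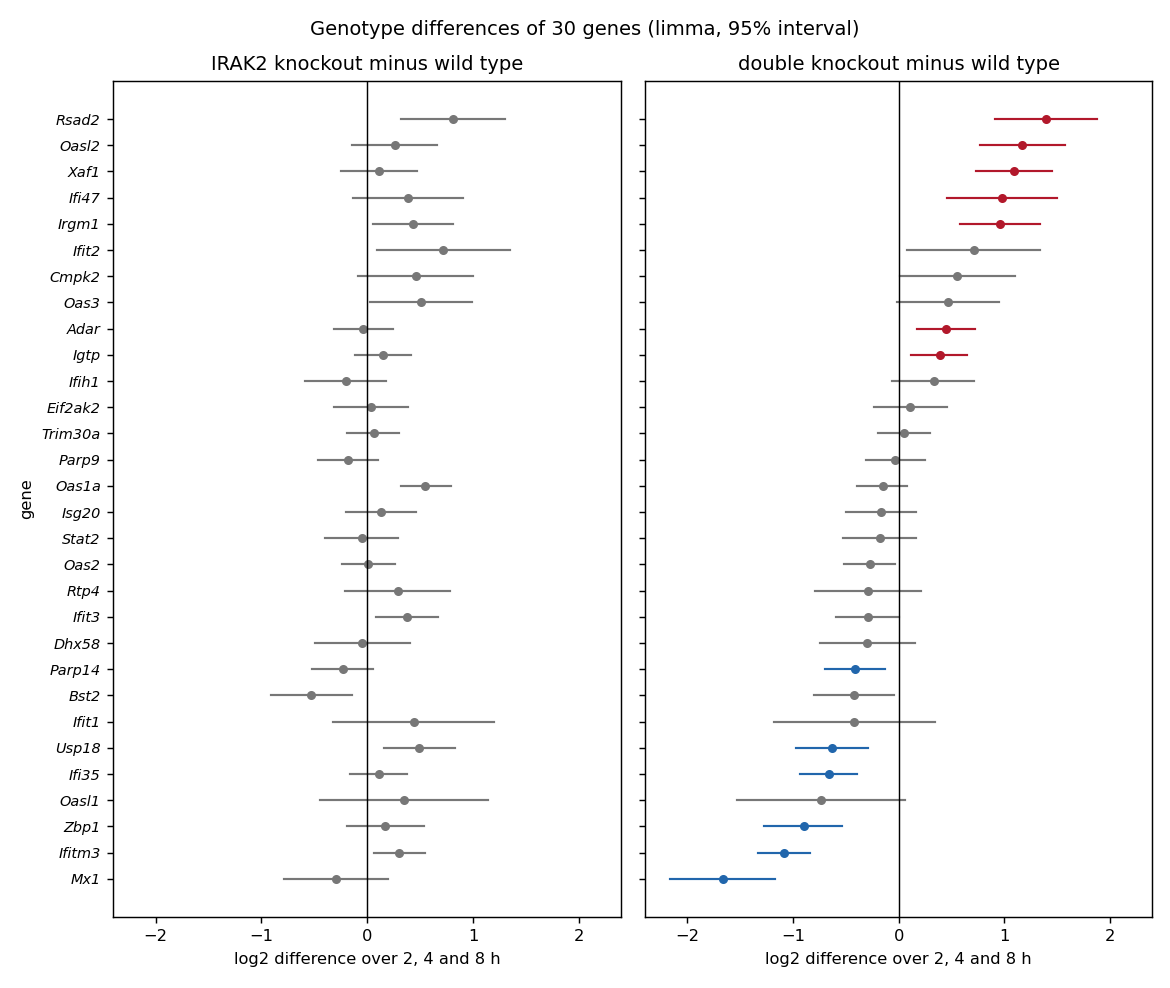
Log2 difference from wild type over 2, 4 and 8 h for the 30 tested genes, in the IRAK2 knockout (left) and the double knockout (right), ordered by the double knockout; points are limma estimates with 95% intervals, red called higher, blue called lower and grey not called. No gene is called at left, and the right panel runs from -1.66 for Mx1 to 1.39 for Rsad2.

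The genes higher in the double knockout were led by Rsad2, at 8.18, 9.57 and 9.29 against 6.26, 8.11 and 8.48 in wild type, a difference of 1.39 (SE 0.21, limma adjusted p = 0.0013). Its second probeset gave 0.89 (adjusted p = 0.0021). Oasl2, at 5.43, 6.35 and 6.70 against 4.17, 5.11 and 5.69, was higher by 1.17 (SE 0.18, adjusted p = 0.0012), and each double-knockout array was above the wild-type array of its time by at least 1 log2. The GTPases Irgm1 (0.96, SE 0.17, adjusted p = 0.0022), Ifi47 (0.98, SE 0.23, adjusted p = 0.0093) and Igtp (0.39, SE 0.12, adjusted p = 0.029) were higher together. Irgm1 read 6.08, 7.06 and 6.44 in the double knockout and Ifi47 7.85, 8.64 and 7.91, and both were highest at 4 h, where wild type was highest at 8 h. Igtp was no longer called without the 2 h arrays (adjusted p = 0.077), without the 4 h arrays (adjusted p = 0.28) or with arrays centred on their medians (adjusted p = 0.064). Ifi47 lost its call without the 2 h or the 4 h arrays (adjusted p = 0.070 and 0.095).

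The last pair called higher, Xaf1 and Adar, depended on the probeset. Xaf1 was 1.09 higher on the probeset used (SE 0.16, limma adjusted p = 9.82e-04) and lower on its other probeset (-1.42, adjusted p = 2.53e-04). Adar was 0.45 higher (SE 0.12, adjusted p = 0.017), while the other probesets gave -0.49 (adjusted p = 0.066) and -0.61 (adjusted p = 0.0097). Eif2ak2, not called on the probeset used (0.11), was lower on both of its others, by -0.74 and -0.57. Where on the transcript each probeset lies was not analysed here, and the weaker 5′ signal of the double-knockout arrays moves with this comparison, so no direction is given for these 3 genes. That signal moves with every double-knockout difference given here, pathway genes included, and its part in them was not tested. Mx1, Ifitm3, Usp18, Oasl2, Irgm1, Ifi47 and Igtp have 1 probeset each, so their directions could not be checked on another.

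The genes lower in the double knockout included Mx1 (-1.66, SE 0.22, limma adjusted p = 6.21e-04), with the values given above. Ifitm3 read 9.38, 9.50 and 9.27 against 10.36, 10.59 and 10.46 in wild type, a nearly constant gap of -1.08 (SE 0.11, adjusted p = 2.00e-04). Zbp1 read 4.08, 5.21 and 5.16 against 5.25, 5.61 and 6.30 (-0.90, SE 0.16, limma adjusted p = 0.0025). Its other probeset, under the floor on average (3.73), gave -0.00. Ifitm3 lay below wild type by a similar amount at each time, and among the stimulated arrays Zbp1 was lowest at 2 h in both genotypes. Usp18 read 4.04, 4.14 and 4.76 against 4.38, 4.99 and 5.47 (-0.63, SE 0.15, adjusted p = 0.0093), a call lost without the 4 h arrays (adjusted p = 0.11). Ifi35, at 9.75, 9.78 and 9.60, was lower by -0.66 (SE 0.12, adjusted p = 0.0026), and its other probesets by -0.63 and -0.49. Parp14 was lower by -0.41 (SE 0.13, adjusted p = 0.028), a call lost when any 1 time was left out (adjusted p = 0.080 to 0.13), and by -1.22 on its other probeset (adjusted p = 5.49e-04).

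Ifit1 (-0.42, adjusted p = 0.34), Rtp4 (-0.29, adjusted p = 0.32), Ifit2 (0.71, adjusted p = 0.070), Oasl1 (-0.73, adjusted p = 0.12) and Oas3 (0.47, adjusted p = 0.11) were not called in limma over the 3 times. For Ifit1 and Rtp4 the 8 h arrays set the sign: without them the differences were 0.08 and 0.05. Ifit1 read 7.74 at 4 h against 7.33 in wild type and 6.51 at 8 h against 7.93. Rtp4 read 7.02 against 7.11 and then 6.85 against 7.82, and Oasl1 4.18 against 4.84 and then 4.11 against 5.63. Oas3 went the other way, from 3.83 against 4.04 at 2 h to 4.77 against 3.77 at 8 h. A limma fit of the genotype difference on log2 time called 0 of the 30 genes for the double knockout and 0 for the IRAK2 knockout. For the double knockout 15 genes were called in all (background 0.0276% rising and 0.111% falling). The background for the IRAK2 knockout was 0% and 0.00921%. At an unadjusted p under 0.05, 3 of the 30 rose and 5 fell for the double knockout, beside 834 and 795 of all 10858 genes tested. For the IRAK2 knockout 2 rose and 0 fell, beside 176 and 360. In the limma fit for the double knockout Oasl1 had an adjusted p of 0.098, with a change of -0.76 per doubling of time (SE 0.13).

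Against the IRAK2 knockout, 5 genes were higher in the double knockout (22.1% of all genes) and 8 lower (16.8%). Oasl2 (0.91, adjusted p = 0.0042), Irgm1 (0.53, adjusted p = 0.033) and Ifih1 (0.53, adjusted p = 0.036) were higher in limma, besides Xaf1 and Adar, whose probesets disagree. Lower were Ifitm3 (-1.39, adjusted p = 7.73e-05), Mx1 (-1.36, adjusted p = 0.0017), Usp18 (-1.12, adjusted p = 7.66e-04), Zbp1 (-1.08, adjusted p = 0.0013), Oasl1 (-1.08, adjusted p = 0.038), Ifi35 (-0.77, adjusted p = 0.0014), Oas1a (-0.71, adjusted p = 0.0012) and Ifit3 (-0.67, adjusted p = 0.0044). Without the 4 h arrays the higher calls came to 1 and the lower ones to 8, and with arrays centred on their medians to 3 and 8. In these fits 1572 and 4172 genes were called in all.

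With the 0 h array of the double knockout as baseline, 12, 17 and 16 genes were at least 2-fold higher at 2, 4 and 8 h, of 29, 29 and 31 measured, but 31.0%, 32.5% and 34.8% of all genes were too. It read 10.24 for Rsad2 and 3.93 for Adar and Parp9, outside the range of the other arrays for these genes. Against the mean of the 0 h arrays of the other genotypes, the counts of 31 genes were 1, 10 and 5 higher (4.22%, 4.57% and 3.42% of all genes) and 4, 2 and 1 lower (5.99%, 5.77% and 3.15%). The 10 genes at 4 h were Ifit1, Ifit2, Ifih1, Cmpk2, Ifi47, Iigp1, Irgm1, Oasl2, Rsad2 and Xaf1, and such a difference holds any constant gap between genotypes or arrays. Mx1 was not among them.

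Markers of other cells also moved with the double knockout. The neutrophil genes S100a8 and Camp were lower, and the 6 genes read of that list summed to 9.26 to 9.53 on the stimulated arrays against 10.73 to 11.10 in wild type, with Ngp, Elane and Mpo under the floor on all 11 arrays. Siglecf and Cpa3 of the eosinophil and mast cell list were higher, that list summing to 7.96 to 8.29 against 6.93 to 7.45, with Prg2, Epx, Ccr3, Mcpt4 and Fcer1a under the floor throughout. Of the 3 dendritic cell genes tested, Klk1 (0.51) and Zbtb46 (0.79) were higher and Ccr9 lower (-1.46), and the list summed to 7.78 to 8.08 against 7.57 to 7.80. Cd79a of the B cell list (-0.59) and Dcn of the stromal list (-0.63) were lower, each the 1 gene called of 4 tested. The B cell list summed to 7.41 to 7.97 against 7.35 to 8.16 in wild type. The stromal list summed to 11.11 to 11.25 against 10.93 to 11.17. These 2 sums mostly follow the brightest gene of each list, Ighm and Col1a1, so they do not show whether the other genes were lower. The 8 macrophage markers summed to 14.44 to 14.47 against 14.54 to 14.60, and 5 of them were called: Mertk was higher (0.54), and Cd14 (-1.85), Itgam (-0.78), Adgre1 (-0.69) and Fcgr1 (-0.56) were lower. The part of these cells in the differences above was not tested.

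The rest of the interferon pathway was read from lists of ligands, receptors, factors and other inducible genes. Of 18 interferon genes listed, 9 were read, and Ifnb1, Ifna2, Ifna4, Ifna9, Ifna11, Ifnab and Ifng were under the floor on all 11 arrays. Ifnb1, the interferon that macrophages make first, read 3.62, 3.36, 3.35 and 3.39 in wild type. The IRAK2-knockout arrays gave 3.45, 3.23, 3.40 and 3.76, and the stimulated double-knockout arrays 3.38, 3.35 and 3.33. None of these values reached the floor, so no level of interferon beta was measured at these times. Of the ligands, Ifna1 alone had a mean over the floor (3.93 to 4.47), and it was not called in any comparison.

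Of 8 receptor and kinase genes tested, 5 were higher at 2 h and 1 lower, where 16.2% and 29.0% of all tested genes were. Ifnar1 read 8.31, 9.78, 9.44 and 9.14 in wild type and 8.31, 9.56, 9.10 and 8.85 in the IRAK2 knockout, a rise of 1.36 at 2 h (SE 0.12, limma adjusted p = 7.54e-05). Jak2 rose by 2.37 (SE 0.15, adjusted p = 1.85e-05), Ifnar2 by 0.73 (adjusted p = 0.0011) and Tyk2 by 0.59 (adjusted p = 0.0053), while Ifngr1, a chain of the interferon gamma receptor, fell by 0.39 (adjusted p = 0.041). In the double knockout 4 of the 8 were lower than in wild type and 0 higher (background 17.4% and 23.8%): Jak2 (-1.24, adjusted p = 4.55e-04), Ifnar1 (-1.17, adjusted p = 0.0023), Ifngr2 (-1.14, adjusted p = 0.0035) and Ifnar2 (-1.07, adjusted p = 2.65e-04). Ifngr1 was the 1 receptor gene called in the IRAK2 knockout, 0.60 higher (adjusted p = 0.049).

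Among 7 tested transcription factors, Irf1 and Irf8 moved furthest and in opposite directions. Irf1, an early activator of interferon-inducible genes, read 6.70, 8.97, 8.18 and 7.98 in wild type. Arrays of the IRAK2 knockout gave 6.90, 8.95, 8.08 and 7.70, and stimulated double-knockout arrays 9.69, 8.80 and 7.71. It was highest at 2 h in every genotype (2.17 over 0 h, SE 0.13, limma adjusted p = 1.63e-05) and declined by 8 h (-1.41 against 2 h, SE 0.19, adjusted p = 0.0018). Irf8, a factor of the macrophage lineage, read 8.73, 6.01, 7.28 and 7.52 in wild type and was lowest at 2 h (-2.65, SE 0.11, adjusted p = 2.88e-06). Irf9, the DNA-binding part of the ISRE complex, fell by 0.36 at 2 h (adjusted p = 0.027) and rose by 0.47 from 2 to 8 h (adjusted p = 0.034). Irf7, which amplifies type I interferon, read 4.93, 4.64, 4.45 and 4.74 in wild type, was not called higher at any time and fell by 0.40 at 4 h (adjusted p = 0.022). Of the 7 factors, 2 were higher and 3 lower in the double knockout (background 23.8% and 17.4%). Irf2 (0.93, adjusted p = 0.0028) and Irf8 (0.48, adjusted p = 0.010) were higher, and Irf3, which starts interferon beta transcription (-1.18, adjusted p = 5.76e-04), Irf5 (-0.57, adjusted p = 0.035) and Irf7 (-0.43, adjusted p = 0.015) were lower.

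**Figure D5:**
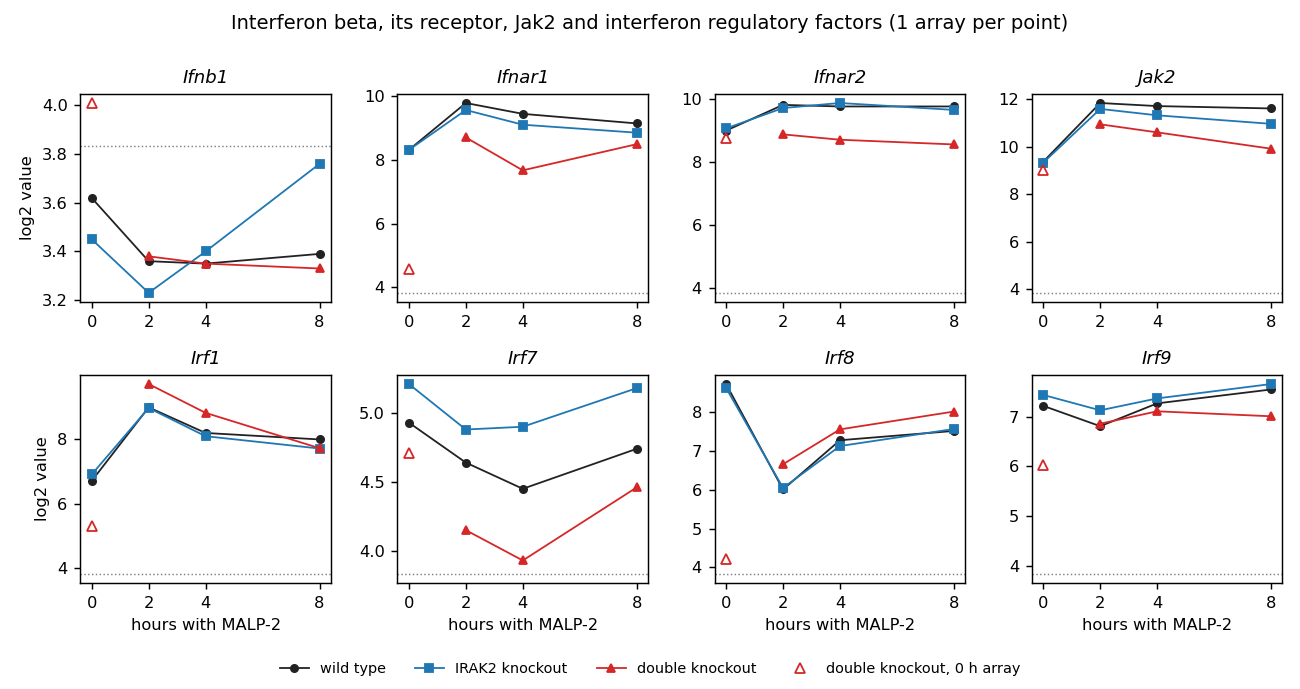
Log2 value (vertical, scaled per gene) against hours with MALP-2 for interferon beta, its receptor chains, Jak2 and 4 interferon regulatory factors, with symbols as in the time courses of the 12 genes (black wild type, blue IRAK2 knockout, red double knockout, dotted floor of 3.83). Ifnb1 lies under the floor on all arrays but the double-knockout 0 h array (4.01), Irf1 peaks and Irf8 dips at 2 h, and the red lines of Ifnar1, Ifnar2 and Jak2 lie below the others after MALP-2.

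Of the upstream genes, 11 were tested, and 4 were higher and 5 lower at 2 h (background 16.2% and 29.0%). Tlr7, a sensor of single-stranded RNA, rose by 2.95 at 2 h (SE 0.21, limma adjusted p = 3.37e-05), and the kinase gene Ikbke by 1.60 (adjusted p = 1.46e-04), while Tlr4 fell by 1.61 (adjusted p = 2.75e-05), Tlr3 by 1.13 (adjusted p = 2.17e-04) and the RNA sensor gene Ddx58 by 0.62 (adjusted p = 0.016). Compared with wild type, 7 of the 11 were higher in the double knockout and 2 lower (background 23.8% and 17.4%). The higher genes were Tlr4 (0.99), Ddx58 (0.76, adjusted p = 0.0073), Mavs (0.70), Tlr3 (0.68), Cgas (0.51), Sting1 (0.35) and Tbk1 (0.33), and the lower ones Tlr7 (-1.95, adjusted p = 6.30e-05) and Ikbke (-0.72).

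A wider list of 42 other interferon-inducible genes had 32 tested. Of these, 11 were higher and 6 lower at 2 h (background 16.2% and 29.0%), and 12 higher and 1 lower at 8 h (14.7% and 18.0%). The guanylate-binding protein gene Gbp2 and the chemokine gene Ccl5 were called higher at both times. Gbp2 read 6.37, 8.67, 9.32 and 9.70 in wild type, and Ccl5, a T cell attractant, 6.05, 10.22, 10.83 and 10.53. Gbp2 was 2.26 higher at 2 h and Ccl5 4.38 higher. Against wild type, 8 of the 32 were higher and 9 lower in the double knockout (background 23.8% and 17.4%). The 5 furthest below wild type were Ccl5 (-2.06), Ifitm2 (-1.99), Ifi27l2a (-1.82), Ifitm1 (-1.54) and Cxcl10 (-1.11), and the 4 furthest above it Phf11d (1.18), Gbp6 (0.92), Ifi202b (0.89) and Herc6 (0.86). In the IRAK2 knockout Ifi202b was the 1 gene of the 32 called, lower by -3.53, with 4.21 to 4.68 on its 4 arrays against 7.64 to 8.37 in wild type and 8.21 to 9.84 on the stimulated double-knockout arrays.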

How the data were processed

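The authors deposited 1 log2 value for each probeset on each array, made with RMA per the submitters' processing notes; its version and settings are not given in the sources used here. Per the labels' protocols, Trizol RNA was labelled with the NuGEN Ovation system. RMA equalises array distributions, so a shift of all genes cannot be seen. The number of arrays, 1 per group, limits the precision.

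Probesets with 1 gene symbol in GEO's platform annotation were read, 1 per gene (highest mean over the 11 arrays other than double-knockout 0 h). For 13 of the 32 genes there were other probesets, 18 in all. limma 3.58.1 (R 4.3.3; lmFit, contrasts.fit, eBayes) was fitted to the 9 stimulated arrays (genotype and time as additive factors, 4 residual degrees of freedom), to the 8 wild-type and IRAK2-knockout arrays (3 residual degrees of freedom) and, for changes of a genotype difference, with genotype by log2 time (2 residual degrees of freedom). Scripts were tested on simulated data. Single arrays were compared by 2-fold differences with the higher value at or above the floor, with no test. Summed levels of marker lists are log2 of summed linear values.

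The genes named are all 35 members and lists of pathway and marker genes; those with a called difference, or the largest ones, have full statistics. Members, lists and motifs were chosen with earlier results of these data known. Promoter sequences are from RefSeq, and their build is not that of the probesets.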

Additional observations from a re-analysis of the deposited data

Results flagged for a closer look

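In 6 genes the knockouts lay on opposite sides of wild type at 2, 4 and 8 h, above it in the IRAK2 knockout and below it in the double knockout, and differed from each other in limma. The double knockout minus IRAK2 knockout difference was -1.39 for Ifitm3, -1.12 for Usp18, -1.08 for Zbp1, -0.77 for Ifi35, -0.71 for Oas1a and -0.67 for Ifit3. Against wild type, none of the 6 was called in the IRAK2 knockout, and Oas1a and Ifit3 were not called in the double knockout. The distances from wild type were small for some: Oas1a was 0.05, 0.19 and 0.22 below it in the double knockout (-0.05, -0.19 and -0.22). In the IRAK2 knockout Ifi35 was only 0.06, 0.06 and 0.21 above wild type and Zbp1 0.08, 0.31 and 0.13. Of all 10858 genes tested, 535 (4.93%) had the same pattern, beside 6 of the 30 here. The reverse pattern, below wild type in the IRAK2 knockout and above it in the double knockout, was held by 513 (4.72%) and by 0 of the 30. The wild-type arrays are shared by both comparisons.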

How the results depend on the processing

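Of the counts of genes called or 2-fold apart, 120 recomputed values stayed within 1.5 times the value reported and 21 did not. Among the 120 is the count at 8 h against 0 h with 11 arrays in the fit. It came to 14 in place of 21, where 2699 genes were called in all. No difference of a called gene changed sign in the alternatives chosen at the start. For the IRAK2 knockout against wild type the count went from 0 to 7 with these genotypes alone. It came to 1 with 11 arrays and to 1 with a floor 1 log2 higher. In those fits 565, 143 and 72 genes were called in all. At 4 h against 2 h the count went from 13 to 0 without the wild-type arrays and to 0 without the IRAK2-knockout arrays. At 8 h against 2 h it went from 19 to 9 without the latter, where 418 genes were called in all. These fits have fewer arrays. With a 1.5-fold limit, genes apart at 2, 4 and 8 h numbered 11, 9 and 18 in wild type and 8, 10 and 20 in the IRAK2 knockout. Between genotypes that limit gave 2 at 0 h, 5 at 2 h and 9 at 8 h for the IRAK2 knockout, and 15 at 4 h and 13 at 8 h for the double knockout. These 1.5-fold counts hold both directions together. The share of all genes past 1.5-fold was not computed, so they cannot be set against a background. Centring the arrays left 0 for the IRAK2 knockout at 2 h. With the substitute baseline the double knockout had 5, 12 and 6 genes apart in place of 16, 19 and 18.

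Without the 8 h arrays the double-knockout differences from wild type of Ifit1 (0.08) and Rtp4 (0.05), neither called, changed sign. An alternative chosen after seeing the data used the second-brightest probeset. Adar then gave -0.49 (double knockout against wild type), -0.56 (against the IRAK2 knockout), -0.49 (4 h against 2 h), -0.23 (8 h against 2 h) and 0.50 (2 h against 0 h). Xaf1 gave -1.42, -1.65 and, at 2 h against 0 h, 0.10, and Cmpk2 at 8 h against 0 h gave -0.06. The cause was not tested. Of the other values for single genes, 875 kept direction and side of the threshold, 97 lost the call and 12 gained it. No paired analysis was possible because each group has 1 array and the labels carry no replicate numbers. Signal over background limits Oas3, Dhx58, Mx2, Iigp1 and the interferon ligands.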
